A study of Homo sapiens with 19 samples.

Results

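The mRNAs of 10 P-body and decapping factors, DDX6, EDC3, EDC4, DCP1A, DCP1B, DCP2, XRN1, LSM14A, LSM14B and PATL1, were followed through every library with a deposited value. They form a list of named genes, whose rule uses no measured value, and were found by Ensembl gene ID among the 19942 genes that the TPM and eCLIP tables list and by transcript ID among the 256980 transcripts of the rRNA-depleted table. All 10 genes were present in each table.

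P-bodies are cytoplasmic granules that hold translationally repressed mRNAs together with the machinery that removes the 5′ cap. Decapping by DCP2 commits an mRNA to 5′ to 3′ degradation by XRN1, and it is stimulated by DCP1A or DCP1B, by the scaffolds EDC3, EDC4 and PATL1 and by the LSM1-7 ring. The helicase DDX6 and its partners LSM14A and LSM14B repress translation and are needed for P-bodies to form in human cells. Stress granules (SGs) are distinct granules that form when translation stops, are built around G3BP1 and G3BP2, and often dock with P-bodies. The measurements below concern the mRNAs that encode these factors, not the proteins.

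The cells were SH-SY5Y, a human neuroblastoma line, and stress was given with sodium arsenite (AS). RNA-seq was made from cells transfected with control siRNA (siCtrl), siRNA against G3BP1 (siG3BP1) or siRNA against G3BP2 (siG3BP2), from cleared lysate of AS-treated cells (Total), and from SG cores pulled out of that lysate with an antibody to G3BP1 (SG). These are called the poly-A libraries below. The study states poly-A selection for the knockdowns and names no selection method for Total and SG. rRNA-depleted RNA-seq was made from untreated and AS-treated cells. G3BP1 and G3BP2 eCLIP, in which UV light fixes RNA to the protein that touches it before precipitation, was made with AS and without it. There was 1 library per RNA-seq condition, and there were 2 libraries, numbered as replicates, per eCLIP group. The label of the rRNA-depleted AS library gave 500 μM AS for 1 h, whereas the labels of all poly-A and eCLIP libraries, including siRNA and untreated ones, gave 50 mM for 1 h. The label text therefore did not separate treated from untreated libraries, and groups were taken from the sample titles. The study's methods give 500 μM for 1 h for AS exposure and describe no AS step for the knockdowns. With 1 library per condition, the RNA-seq differences have no replicate check, and nothing in the labels said that the eCLIP duplicates came from separate cultures.

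In the knockdown libraries G3BP1 fell from 18.7 TPM in siCtrl to 6.0 in siG3BP1, with 16.5 in siG3BP2, and G3BP2 fell from 38.1 to 11.4 in siG3BP2, with 39.4 in siG3BP1. Of 10 noradrenergic neuroblastoma markers, 9 were above 10 TPM in each of the 5 poly-A libraries, and only TH stayed at or below 0.389 TPM. Of 6 mesenchymal markers, 4 or 5 were above 1 TPM per library and PRRX1 was at or near 0, while VIM ranged from 692 to 2178 TPM. The numbers behind the eCLIP values summed to between 4268911 and 26179736 per library. For the rRNA-depleted libraries, depth was inferred from the step in value that a single read makes, assuming values scaled by length and depth. It came to 13291959 reads untreated and 11281587 after AS, and is not a sum of recovered reads. TPM kept no depth. In these bulk libraries, fewer cells with an mRNA and less of it per cell cannot be told apart.

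The 10 genes lie on 8 chromosomes and differ widely in their untranslated ends. In the MANE transcript, the reference isoform chosen for each gene, the 3′ UTR ran from 156 nt in DCP1B and 354 nt in EDC4 to 4904 nt in XRN1 and 8714 nt in DCP2. DDX6 had 4345 nt, DCP1A 4154 nt, EDC3 2057 nt, LSM14A 1903 nt, PATL1 1677 nt and LSM14B 1229 nt. The median over 19038 MANE transcripts was 1062 nt, so 8 of the 10 had a longer 3′ UTR than that. GC content ranged from 37.1% in DCP2 and XRN1 to 59.8% in EDC4, against a median of 49.0%.

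Motif sites are printed because several comparisons below turn on the 3′ UTRs, and because the palindromic consensus that the study describes for G3BP-bound RNA covers CCAGCCTGG and its reverse complement CCAGGCTGG. All sites were read on the sense strand of the MANE transcripts of GENCODE on GRCh38, and capitals mark the motif within 8 flanking bases per side. Sites shown as examples are CCAGCCTGG in the 3′ UTR of XRN1 (chr3:142309265-142309273, minus strand), and CCAGGCTGG in that of EDC3 (chr15:74631274-74631282, minus strand).
XRN1, CCAGCCTGG: actgcactCCAGCCTGGagagcaga
EDC3, CCAGGCTGG: gtgtctgcCCAGGCTGGctgagcgg
The examples are not a count of the members with the motif, which in either spelling was present in 28.4% of all MANE transcripts.

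Pumilio proteins bind TGTANATA, where N is any base, and recruit the decay machinery to the mRNAs that carry it. XRN1 carried the motif in its coding sequence, and 4 other members carried it in the 3′ UTR, against 28.6% of all MANE transcripts with it. Longer transcripts carry it more often. Among transcripts of similar length the share was 68.7% for XRN1 and DCP2, 49.6% for DDX6, 35.0% for PATL1 and 28.8% for LSM14A. For the members without the motif it ran from 16.3% in DCP1B to 48.5% in DCP1A. An excess beyond length was not tested. Each of the 8 sites was spelled TGTAAATA. The DDX6 sites lie at chr11:118751382-118751389 and chr11:118751105-118751112 on the minus strand, the LSM14A sites at chr19:34228344-34228351 and chr19:34229106-34229113 on the plus strand, and the XRN1 site at chr3:142425488-142425495 on the minus strand.
DDX6, upstream site: atccgcacTGTAAATAcatgtatt
DDX6, downstream site: tataacttTGTAAATAagtttttt
LSM14A, upstream site: tatacaaaTGTAAATAatcacaga
LSM14A, downstream site: aagaaaacTGTAAATActagttct
XRN1, coding site: aagtatttTGTAAATAtgaaaatt
DCP2 held 2 further sites and PATL1 held 1. The pentamer ATTTA, the core of AU-rich elements, occurred 30 times in DCP2, 23 in XRN1, 12 in DDX6, 10 in DCP1A, 4 in PATL1, 3 in LSM14A and 2 in LSM14B, and was absent from DCP1B, EDC3 and EDC4. It occurred in 77.0% of all MANE transcripts. Motifs were searched on the sense strand only, and a match is a description of the letters in the transcript.

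The mRNAs of 9 of the 10 factors were SG-enriched, called by the study's limits of a fold above 2 and more than 1 TPM in SG. The fold was computed here from TPM + 1. A gene that passes this way always passes without the added 1, so only DCP1B could have changed. Its ratio without the added 1 was 1.26, and it did not pass. Among all 13560 genes that reached 1 TPM in SG or Total, 62.9% were SG-enriched and 9.45% SG-depleted, so most mRNAs of these cells met the same definition. None of the 10 was depleted. The largest fold belonged to XRN1 and the smallest to DCP1B, and the median log2 fold of the 10 was 2.56 against 1.51 for all genes.

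XRN1, the 5′ to 3′ exonuclease, was at 0.196 TPM in Total and at 23.7 TPM in SG, a fold of TPM + 1 of 20.6. In siCtrl, siG3BP1 and siG3BP2 it was at 0.524, 0.606 and 0.793 TPM, so SG was the only one of the 5 poly-A libraries in which it passed 1 TPM. The ratio of TPM without the added 1 was 121. The level in Total was below 1 TPM in 1 library, so the ratio rests on a value near the floor and its size is uncertain. XRN1 passed the minimum of 1 TPM only through SG.

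DDX6, the helicase, rose from 10.4 TPM in Total to 186 TPM in SG, a fold of 16.4. Its levels in siCtrl, siG3BP1 and siG3BP2 were 12.1, 13.7 and 9.48 TPM. It had the highest SG level of the 10, above 95% of the genes over 1 TPM in that library, although it stood near the middle of the genes in siCtrl, above 46.3% of them.

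DCP1A and DCP2, the activating and the catalytic subunit of the decapping enzyme, followed. DCP1A was at 12.2, 10.8, 10.4, 8.51 and 136 TPM in siCtrl, siG3BP1, siG3BP2, Total and SG, a fold of 14.5. DCP2 was at 4.44, 5.51, 4.97, 7.54 and 95.1 TPM in the same order, a fold of 11.3. DCP1B, the paralogue of DCP1A, was the exception among the 10. It was at 11.0, 14.5, 13.4, 8.36 and 10.5 TPM, a fold of 1.23, and was classed as neither enriched nor depleted. DCP1A was between 0.747 and 1.11 times DCP1B in the 4 other poly-A libraries and 12.9 times DCP1B in SG. Their MANE transcripts share no run of 20 bases.

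The scaffolds stood lower. PATL1, which bridges DDX6 and the LSM1-7 ring, was at 13.9, 15.8, 14.2, 10.2 and 70.0 TPM, a fold of 6.36. EDC3, which binds DDX6 and the decapping enzyme, was at 39.8, 18.5, 32.4, 24.4 and 88.1 TPM, a fold of 3.51. EDC4, the large scaffold that joins the decapping enzyme and XRN1, was at 38.2, 28.8, 35.9, 19.8 and 71.3 TPM, a fold of 3.48. EDC3 and EDC4 sat close to the middle of all classified genes, above 56.7% and 56.5% of them.

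LSM14A and LSM14B, the DDX6 partners, were both enriched. LSM14A was at 15, 14.2, 14.6, 12.7 and 59.9 TPM, a fold of 4.46. LSM14B was at 41.6, 32.7, 35.8, 16.7 and 95.6 TPM, a fold of 5.45. LSM14B was 2.78, 2.30 and 2.46 times LSM14A in siCtrl, siG3BP1 and siG3BP2, 1.32 times in Total and 1.60 times in SG.

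**Figure D1:**
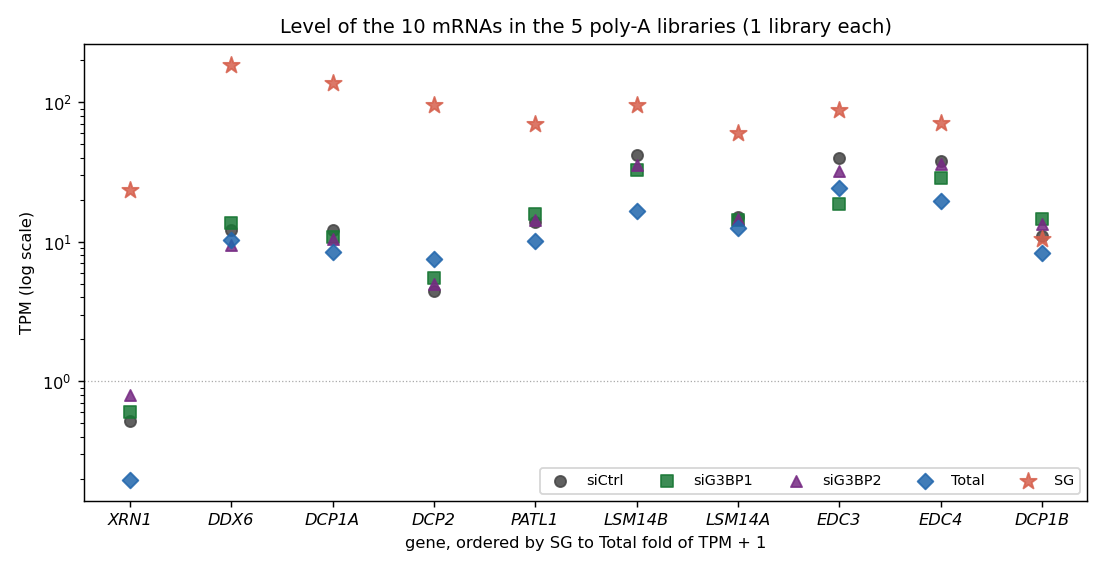
TPM on a log axis for each mRNA in the 5 poly-A libraries, 1 point per library, with genes ordered by the SG to Total fold of TPM + 1 and a dotted line at 1 TPM. The SG point stands above the other 4 for 9 of the mRNAs and among them for DCP1B, at 10.5 TPM.

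TPM are shares of a library, and the SG column as a whole was shifted against Total. Among 10958 genes above 1 TPM in both libraries the median SG to Total ratio was 2.78. When SG was rescaled so that this median was 1, the split over all genes went from 8528 enriched and 1282 depleted to 4505 and 3271, and 5 of the 10 mRNAs remained enriched. These were XRN1, DDX6, DCP1A, DCP2 and PATL1, with SG to Total ratios of 43.4, 6.45, 5.78, 4.55 and 2.48 times the median gene. That of XRN1 rests on 0.196 TPM in Total, near the floor. LSM14B was at 2.06 times the median gene but did not pass once 1 TPM was added, LSM14A was at 1.70 and EDC3 and EDC4 at 1.30. DCP1B was at 0.454 of the median gene and was not depleted on the TPM + 1 scale.

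The order of the SG folds followed the length of the 3′ UTR. Over the 10 mRNAs Spearman's rho between the fold and the 3′ UTR length was 0.818, that with MANE transcript length 0.758, that with GC content -0.770 and that with coding length 0.006. Over 12901 classified genes the corresponding values were 0.528, 0.718, -0.218 and 0.556. All points of such a correlation come from the same 2 libraries, and the values are a description. The 4 mRNAs with the longest 3′ UTR had the 4 highest folds, and the 2 with the shortest had the 2 lowest.

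**Figure D2:**
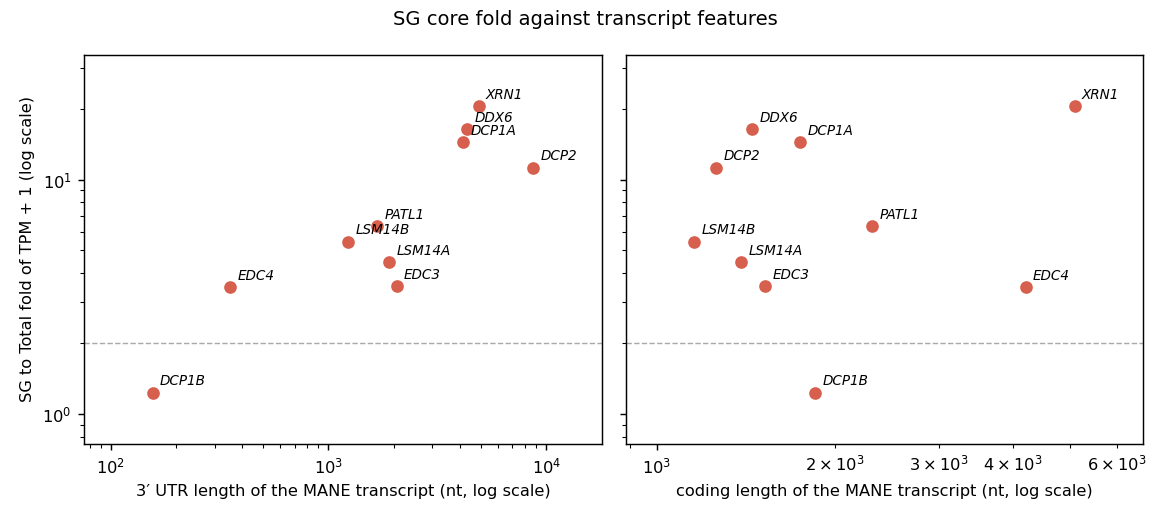
SG to Total fold of TPM + 1 against 3′ UTR length (left) and coding length (right) of the MANE transcript, all axes logarithmic, 1 point per mRNA, with a dashed line at the fold of 2 used for SG-enriched. The fold rises with the 3′ UTR (rho 0.818, n = 10) and shows no order along the coding length (rho 0.006).

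Each mRNA was set beside genes whose MANE transcript was between 0.75 and 1.33 times as long. DCP1B had 3158 such genes, of which 35.6% were SG-enriched, and its fold was above 39.8% of theirs. XRN1 and DCP2 had 1177 and 1172, of which 95.8% and 96.0% were enriched, and stood above 69.2% and 44.9% of them. DDX6, DCP1A and LSM14B stood highest within their length, above 83%, 80.6% and 89.4%, and EDC4 lowest, above 32.8%. EDC3, LSM14A and PATL1 stood above 48.3%, 65.9% and 68.9%. Against genes of like length, the 10 mRNAs were therefore spread from the lower to the upper part of the range, and 6 of them stood above the middle.

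Other factors of mRNA decay were given by 6 lists of 74 genes, of which 72 could be classed. Of these 72, 44 or 61.1% were SG-enriched, 10 were depleted and 18 were neither, a share near the 62.9% of all genes. The LSM1-7 ring, which binds the shortened 3′ end and hands the mRNA to decapping, went against this with 1 enriched, 4 depleted and 2 neither, and a median fold of 0.368. LSM7 was at 268 TPM in Total and 21.6 in SG, and LSM3 at 42.7 and 8.33. LSM2 was the enriched member, at 11.8 and 26.4 TPM, and LSM6, at 8.5 and 7.06, had the next highest fold, 0.848.

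Among further decapping and P-body partners 7 of 11 were enriched, 1 was depleted and 3 were neither. GIGYF1 and GIGYF2, translational repressors that work with the cap-binding protein EIF4E2, had folds of 48.9 and 32.6, whereas EIF4E2 itself was at 99.0 TPM in Total and 57.7 in SG. NBDY, which encodes a small protein that binds EDC4, was depleted at 30.5 and 11.7 TPM. Among 19 deadenylation factors 15 were enriched and 4 were neither. CNOT1, the scaffold of the CCR4-NOT deadenylase, had a fold of 29.8 and PAN3 one of 28.3, while CNOT7, a catalytic subunit, and CNOT10 stood at 1.51 and 0.871.

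The exosome and SKI list held 7 enriched, 5 depleted and 6 neither of 18. DIS3L2, a 3′ to 5′ exonuclease outside the exosome, had a fold of 37.9 and SKIC3 one of 10.3, against 0.226 for EXOSC1 and 0.236 for EXOSC5. In the nonsense-mediated decay list 8 of 10 were enriched and 2 neither, with folds of 54.6 for the kinase SMG1, 1.39 for UPF3A and 1.01 for UPF3B. Of 7 proteins that bind AU-rich elements 6 were enriched and 1 neither, with 12.2 for ZFP36L2, 8.36 for ZFP36L1, 3.0 for ELAVL1 and 0.541 for HNRNPD.

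**Figure D3:**
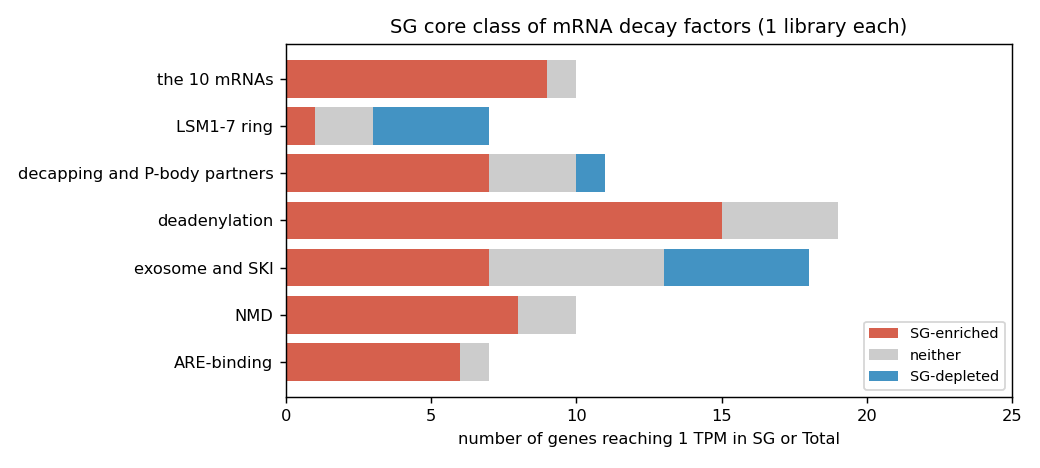
Number of genes classed as SG-enriched (red), neither (grey) or SG-depleted (blue) among the 10 mRNAs and the 6 lists of mRNA decay factors, for genes that reached 1 TPM in SG or Total. The 10 mRNAs show 9 enriched and none depleted, and the LSM1-7 ring 4 depleted of 7.

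Knockdown of the G3BPs was compared with siCtrl by the ratio of TPM, called past 2 or 0.5 with more than 1 TPM in the higher library. In siG3BP1, 1 of the 9 that passed 1 TPM was lower than siCtrl by more than 2 times and none was higher. Over all 12280 genes, 3.69% were lower and 2.53% higher. In siG3BP2 none of 9 passed 2 times in either direction, against 5.62% lower and 2.43% higher of 12229 genes. XRN1 stayed below 1 TPM in the libraries compared and could not be called.

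The mRNA called in siG3BP1 was EDC3, at 39.8 TPM in siCtrl and 18.5 in siG3BP1, a ratio of 0.465, with 32.4 TPM and a ratio of 0.813 in siG3BP2. The call held with 1 TPM added to each value and with the median ratio of all genes set to 1. That median was 0.941, so the scaling moved the ratio of 0.465 closer to the limit of 0.5. A threshold of 1.5 is looser and could not have removed the call. Ratios of the other 8 ran from 0.754 in EDC4 to 1.31 in DCP1B for siG3BP1, and from 0.781 in DDX6 to 1.21 in DCP1B for siG3BP2. Both knockdowns were read against the same siCtrl library, so a deviation of that library enters both ratios. DCP1B, DCP2 and PATL1 had ratios above 1 in both, and DCP1A, EDC3, EDC4, LSM14A and LSM14B below 1 in both. The median ratio of genes above 1 TPM in both libraries was 0.941 for siG3BP1 and 0.919 for siG3BP2. Relative to it LSM14A, at 0.951 and 0.974, was above the median gene in both knockdowns and EDC4, at 0.939, in siG3BP2, so their direction turned with the scaling.

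Among the other decay factors, CNOT2, GIGYF2, PAN3, SMG6 and CNOT6L were lower in siG3BP1 by more than 2 times, with ratios of 0.260, 0.304, 0.362, 0.368 and 0.445. PARN, a deadenylase, was higher in both knockdowns, at 0.326 TPM in siCtrl, 5.49 in siG3BP1 and 5.86 in siG3BP2, and was at 0.273 in Total and 0.705 in SG. SKIC3 was higher in siG3BP1, with a ratio of 2.03, and in siG3BP2 CNOT6L and SKIC2 were lower, with 0.363 and 0.375. CNOT2 had a ratio of 1.08 in siG3BP2 and GIGYF2 one of 0.871, and the difference between the knockdowns could not be tested.

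Total and siCtrl differ in preparation as well as in AS, and their ratio is given as a description only. Among the 9 mRNAs that passed 1 TPM, LSM14B was lower in Total by more than 2 times, with a ratio of 0.402, and none was higher. Over 12173 genes 27.2% were lower and 2.37% higher, and the median ratio of genes above 1 TPM in both was 0.750. With that median set to 1 the split over all genes went from 288 higher and 3311 lower to 678 and 1951, LSM14B no longer passed, and DCP2, at 4.44 TPM in siCtrl and 7.54 in Total, did. DCP2 was the only one of the 10 with more in Total than in siCtrl.

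The rRNA-depleted libraries were compared by transcript. The deposited values were whole multiples of 1 read per base of transcript, so read numbers could be recovered, but a read was counted for every isoform it overlaps. The MANE transcript of each gene is therefore given first. Of 8 MANE transcripts that passed a value of 1, none was more than 2 times higher or lower after AS, against 3.93% higher and 0.319% lower of 10332 MANE transcripts. With the median ratio set to 1, the split over all of these went from 406 higher and 33 lower to 172 and 58. The median AS to untreated ratio over 9652 MANE transcripts was 1.22, and the ratios below are read against it.

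XRN1 had the highest ratio. Its MANE transcript held 298 reads untreated and 436 after AS, and its value went from 2.22 to 3.83, a ratio of 1.72 with an exact 95% counting interval of 1.48 to 2.0. That was above 94.7% of MANE transcripts. DCP1A followed with 397 and 487 reads, a ratio of 1.45 and an interval of 1.26 to 1.65. Both intervals lay above the median of 1.22, and they cover counting error only.

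For 6 further mRNAs the ratio lay between 1.07 and 1.32. PATL1 had 452 and 507 reads, DCP2 807 and 883, EDC3 406 and 422, EDC4 480 and 460, and LSM14B 386 and 352. DDX6 held the most reads, 2103 and 2042, with a ratio of 1.14 and an interval of 1.08 to 1.22, whose upper end lay just below the median ratio. LSM14A had only 18 and 21 reads, a ratio of 1.37 with an interval of 0.697 to 2.74, which spans both no change and a rise of more than 2 times.

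DCP1B went the other way, with 20 reads untreated and 4 after AS. Its value fell from 0.740 to 0.174, both below the minimum of 1, a ratio of 0.236 with an interval of 0.0586 to 0.703. The interval lay below the median ratio of all MANE transcripts, on 24 reads in all. Summed over its transcripts DCP1B went from 3.80 to 0.941, a ratio of 0.248, and was the only one of the 10 called in that sum. A read counts once for every isoform in such a sum, so the call is not separate from the few reads above.

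**Figure D4:**
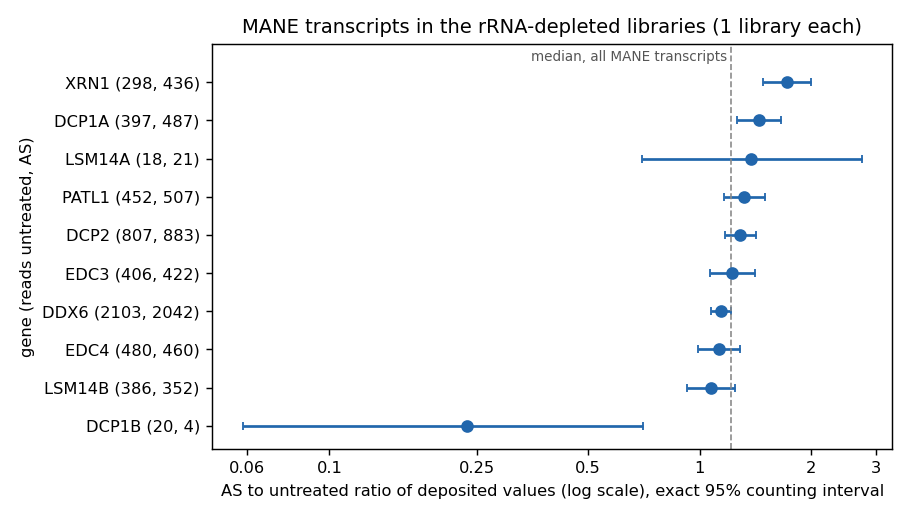
AS to untreated ratio of the MANE transcript of each gene on a log axis, with exact 95% counting intervals and the reads of both libraries beside each name. The dashed line is the median of all MANE transcripts, 1.22. XRN1 and DCP1A lie above it with their intervals, and DDX6, on 2103 and 2042 reads, and DCP1B, on 20 and 4, lie below it with theirs.

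Over all annotated transcripts of the 10 genes, 71 passed a value of 1, of which 5 were higher and 3 lower by more than 2 times. Over 100705 transcripts of all genes 6.84% were higher and 2.01% lower, and with the median ratio of 1.19 set to 1 that split went from 6891 and 2029 to 3255 and 3392. The 8 called transcripts were between 318 and 699 nt long and rested on few reads. The best supported were a retained-intron transcript of XRN1 with 10 and 28 reads, a ratio of 3.30 and an interval of 1.56 to 7.61, and a coding transcript of DCP1A with 21 and 37 reads, a ratio of 2.08 and an interval of 1.18 to 3.73. All 6 DCP1A transcripts above 1 had ratios between 1.45 and 2.08, and the 12 of XRN1 had a median of 1.69, whereas the 7 of DDX6 lay between 1.07 and 1.19. Isoforms of a gene share reads, so their ratios are not separate observations.

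Among 69 MANE transcripts of the other decay factors that passed a value of 1, 7 or 10.1% were higher after AS and none lower, against the 3.93% and 0.319% of all MANE transcripts. They were BTG2, TOB2, TOB1 and BTG1, which recruit the CCR4-NOT deadenylase to mRNAs, with ratios of 6.52, 2.91, 2.62 and 2.07, the AU-rich element binder ZFP36 with 3.93, PARN with 2.36 and the decapping coactivator PNRC1 with 2.34. None of the core decapping factors reached these ratios. BTG2 had 41 and 227 reads, ZFP36 18 and 60 and PARN 19 and 38. ZFP36 and PARN were at 0.775 and 0.465 untreated and passed the minimum of 1 only through the AS library. The 7 calls are not scaled, and relative to the median ratio of 1.22 BTG1, PNRC1 and PARN would not pass 2 times. The lists were chosen with earlier results of these data known, so their share is a description.

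The level of a transcript in the untreated rRNA-depleted library was also set against its level in siCtrl. These are separate preparations on different scales, and the ratio is read only by its rank among 11946 genes above 0.5 TPM in siCtrl. XRN1, DDX6 and DCP2 ranked high, with ratios above 99.4%, 97.5% and 94.5% of genes, although that of XRN1 rests on 0.524 TPM in siCtrl. LSM14A and DCP1B ranked low, above 4.78% and 10.2%. PATL1 stood above 81.0% and DCP1A above 70.9%, with LSM14B, EDC3 and EDC4 at 55.8%, 44.5% and 43.1%. Over 6632 genes above 10 TPM this ratio had a Spearman's rho of 0.449 with MANE length and of -0.611 with GC content, as a description across genes that share both libraries.

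The deposited eCLIP value of a gene is the log10 of 1 plus a whole number. The numbers were not scaled between libraries, and the sources used here do not say which steps they include. For comparison between genes the number was divided by the annotated gene span and by the library total. EDC3 had the highest value per kb, 1.48 ± 0.534 per kb per 1000000 of the library total (SD over 8 libraries), above 93.9% of 19910 genes. DCP2 at 0.873 ± 0.247 and EDC4 at 0.803 ± 0.275 followed, above 80.9% and 78.0%. The median of all genes was 0.418.

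DCP1A at 0.525 ± 0.0892 and XRN1 at 0.524 ± 0.147 could not be told apart, and DDX6 at 0.350 ± 0.167 and LSM14B at 0.319 ± 0.116 lay just below the median of all genes. PATL1 at 0.168 ± 0.0344 stood above 19.2% of genes. LSM14A at 0.0324 ± 0.0205 and DCP1B at 0.0151 ± 0.0129 were the lowest, above 6.17% and 4.81%, and each was listed at 0 in at least 1 library. Divided by the longest transcript in place of the span, EDC4 fell to a rank above 33.6% of genes and DCP2 to 52.4%, and EDC3 stayed high at 90.8%. The 8 libraries are of 2 proteins and 2 treatments, so the SD covers differences between groups too.

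**Figure D5:**
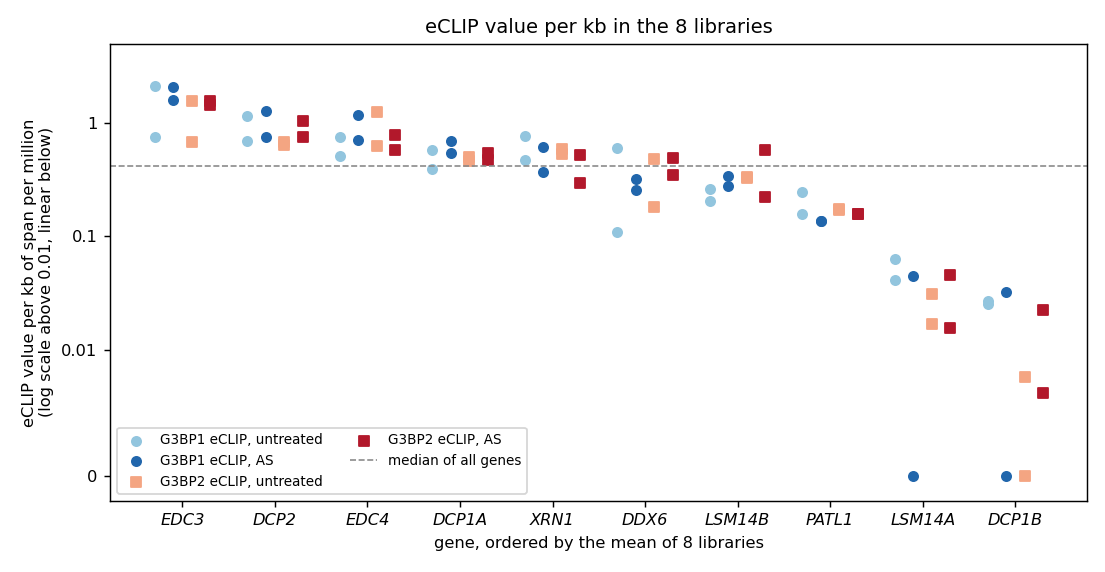
eCLIP value per kb of gene span and per 1000000 of the library total for each gene in the 8 libraries, 2 points per protein and treatment, on an axis that is logarithmic above 0.01 and linear below. The dashed line is the median of all genes over libraries. EDC3 lies above it in all 8, and LSM14A and DCP1B lie below 0.1 in all 8 and reach 0.

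LSM14A and DCP1B were at 15 and 11 TPM in siCtrl, near the level of DCP1A, DDX6 and PATL1, yet were lowest in both the eCLIP and the rRNA-depleted values. For LSM14A, all 57 sampled sequence words of 93 bases along the gene were also found on an alternate locus of GRCh38, a second copy of a region in the assembly. For XRN1 it was 2 of 142 words, and for each of the other 8 genes, DCP1B included, 0. Across all genes, 585 had at least 90% of their words on an alternate locus. Their median eCLIP value per kb was 0.00193, against 0.439 for the 19002 genes with at most 10%. Of the genes above 10 TPM in siCtrl, the median ratio of the untreated rRNA-depleted value to siCtrl was 0.0123 for 93 such genes and 0.182 for 6484 others. The low LSM14A values moved with this property of the assembly, and its part in them was not tested. DCP1B lies inside CACNA1C on the opposite strand over 57.7% of its span, DCP1A overlaps CACNA1D over 29.0% and EDC3 overlaps CLK3 over 22.6%, both on opposite strands, and reads of such pairs may be exchanged.

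The change in eCLIP value after AS did not pass the test against the spread between duplicates for any of the 10 genes. In log10 values as deposited, XRN1 was at 3.21 and 2.87 in the 2 untreated and 3.30 and 2.35 in the 2 AS libraries of G3BP1, and at 3.30 and 2.95 against 3.29 and 2.51 in those of G3BP2. EDC3 was at 3.08 and 2.98 against 3.38 and 2.77 for G3BP1, and at 3.07 and 3.04 against 3.43 and 2.86 for G3BP2. As deposited, the groups overlapped for both genes and both proteins. In both proteins the second AS library lay lowest, as did its library total, and libraries were scaled to the same total before testing.

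DDX6 was at 2.06 and 2.25 against 2.50 and 1.69 for G3BP1 and at 2.32 and 2.35 against 2.60 and 2.22 for G3BP2. DCP2 was at 2.88 and 2.55 against 2.89 and 2.40, and at 2.88 and 2.52 against 2.95 and 2.56. LSM14A was at 1.94 and 1.23 against 1.77 and 0, and at 1.41 and 1.30 against 1.38 and 1.32. As deposited, treated and untreated values overlapped in all 3 genes for both proteins. DCP1B was at 1.59 and 1.04 against 0 and 0.95 for G3BP1, where the AS values were the lower pair, and at 1.11 and 0 against 1.04 and 1.04 for G3BP2, where they overlapped. Values of EDC4, DCP1A, LSM14B and PATL1 lay between 1.28 and 2.96 over the 8 libraries.

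After scaling to the same total, as in the tests, some pairs separated. For G3BP2, XRN1 was at 3.10 and 3.14 untreated and at 3.096 and 2.85 after AS, and DCP2 at 2.68 and 2.71 against 2.76 and 2.90. PATL1 was lower after AS for both proteins, at 1.93 and 2.13 against 1.88 and 1.88 for G3BP1 and at 1.98 and 1.97 against 1.94 and 1.93 for G3BP2. LSM14B was higher for G3BP1, at 1.76 and 1.66 against 1.79 and 1.88, and DCP1B overlapped for both proteins. Thus for G3BP1 1 of the 10 had both AS values above and 1 below the untreated pair, against 13.3% and 14.5% of all genes, and for G3BP2 1 was above and 2 below, against 14.7% and 15.6%. With 2 libraries per group such a separation is common among all genes.

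With limma on the scaled values and Benjamini-Hochberg adjustment, no gene passed 0.05 in any of the 5 comparisons. For AS in G3BP1, an unadjusted p under 0.05 was reached by 253 higher and 229 lower genes of 18888, and for AS in G3BP2 by 330 and 305 of 19035. None of the 10 was among them. Changes of log10 after AS for G3BP1 ran from -0.87 ± 0.56 (SE) in LSM14A and -0.67 ± 0.53 in DCP1B to 0.16 ± 0.15 in EDC3 and 0.17 ± 0.14 in EDC4, and 6 of 10 were above 0. For G3BP2 they ran from -0.15 ± 0.09 in XRN1 and -0.12 ± 0.13 in EDC4 to 0.16 ± 0.12 in EDC3 and 0.64 ± 0.41 in DCP1B, and 7 of 10 were above 0. The LSM14A change for G3BP1 and both DCP1B changes rest on groups with a library at 0.

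G3BP2 and G3BP1 did not differ at 0.05 adjusted in untreated cells, where 71 higher and 87 lower genes had an unadjusted p under 0.05, nor after AS, with 52 and 47. The interaction of AS and protein gave 0 genes, with 60 and 84 at an unadjusted p under 0.05. Among the 10 genes the lowest unadjusted p in these 3 comparisons was 0.0502, for DCP1B in untreated cells, where the scaled log10 value of G3BP2 minus that of G3BP1 was -0.95 ± 0.37 (SE) and the adjusted p in limma was 0.997. DCP1B stood at 0 in 1 of those 4 libraries.

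The genes whose profile over the 5 poly-A libraries was most like the mean profile of the 10 were TCEANC2, PELI1, PRKCI, RBFOX2 and C3orf62, with distances of 0.0558 to 0.0927 between centred log2(TPM + 1) profiles among 10757 genes above 10 TPM in at least 1 library. RBFOX2, for example, was at 19.3, 18, 18.8, 14.8 and 104 TPM in siCtrl, siG3BP1, siG3BP2, Total and SG. Of the 10 themselves PATL1 came closest to the mean profile, at a distance of 0.238 and rank 135, followed by LSM14A at 0.391 and rank 529. DCP1B was farthest, at 2.30 and rank 8118. The 10 mRNAs therefore did not share 1 profile. The 5 genes named above were picked for the smallest distances, and none of the 10 came as close. Of the 5, TCEANC2, PELI1, PRKCI and C3orf62 passed 10 TPM only in SG, where the mean profile is highest. Their high SG level is therefore partly set by the filter, and the likeness is a description.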

How the data were processed

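All samples were SH-SY5Y cells. For eCLIP the authors trimmed and deduplicated reads with fastp, aligned them with STAR and called peaks with CLIPper against size-matched inputs, which were not analysed here. They deposited log10 values of 19942 protein-coding genes. For the poly-A libraries the authors aligned reads with HISAT2 2.1.0 to hg38 and deposited TPM from StringTie. The rRNA-depleted table, deposited per transcript under a TPM header, was treated as signal because its columns sum to more than 1000000. Value times length gave whole reads for 100% of the transcripts below 200 reads (tolerance 0.01 reads).

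Genes were matched to GENCODE 44 on GRCh38 (19910 of 19942 rows), and 88.5% of transcripts matched in version. eCLIP libraries were scaled to the same total and tested over the genes that were above 0 in 2 or more libraries, using limma 3.58.1 (R 4.3.3, variance trend on) with p-values adjusted by Benjamini-Hochberg and a threshold of 0.05. limma was checked on simulated data. The samples of the RNA-seq comparisons, 1 per group, were not tested. SG classes used a fold of TPM + 1 past 2 or 0.5 and a minimum of 1 TPM, and other calls the same limits on the ratio. Counting intervals are exact, at 95%. The rule for named genes took all 10 mRNAs, the 2 highest and 2 lowest SG folds of each list, decay factors called in a comparison, and the 5 genes most alike in profile. Of these, 1 list gene is not reported here, nor are some motif sites. The members and lists were chosen with earlier results of these data known. MANE transcripts as a set of their own were added after seeing the data. Alternatives covered scaling, pseudocounts, thresholds, minima, lengths, the replicate block and leaving out each eCLIP library. Python 3.11.15 was used for the rest.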

Additional observations from a re-analysis of the deposited data

How the results depend on the processing

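Of 49 alternatives of the 5 eCLIP comparisons, 46 gave 0 genes at an adjusted p under 0.05. With values as deposited, AS in G3BP2 gave 2 genes. Leaving out 1 library gave 0 to 2 genes for AS in G3BP1 (2 without the second untreated library) and 0 to 24 for the interaction (24 without the first G3BP1 AS library). The lowest adjusted p of any of the 10 mRNAs under an alternative was 0.130. The replicate numbers were not stated to mark a shared culture, and same-numbered libraries deviated together with correlations of 0.176 and 0.127 for AS in G3BP1 and G3BP2 and of 0.543 and 0.477 for G3BP2 against G3BP1. The replicate block gave 0 genes at an adjusted p under 0.05 in all 5 comparisons, but unadjusted p-values moved. For G3BP2 against G3BP1 in untreated cells, genes at an unadjusted p under 0.05 in limma went from 71 higher and 87 lower to 382 and 403. After AS they went from 52 and 47 to 141 and 179. DCP1B in untreated cells then had an unadjusted p of 0.0118 in limma, with an adjusted p of 0.926. Differences under the block equal those without it, sign changes included.

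With values as deposited the change after AS turned to -0.06 in DDX6, -0.005 in DCP1A and -0.07 in DCP2 for G3BP1, and to -0.05 in DCP1A, -0.005 in LSM14A and -0.04 in LSM14B for G3BP2. Leaving out 1 library at a time turned the sign of some changes. For G3BP1 they then ranged from -0.32 to 0.42 in DDX6, from -0.066 to 0.38 in EDC3, from -1.42 to 0.086 in DCP1B, from -0.075 to 0.16 in DCP2 and from -0.22 to 0.011 in XRN1. For G3BP2 they ranged from -0.062 to 0.36 in DDX6, from -0.017 to 0.34 in EDC3, from -0.27 to 0.026 in EDC4, from -0.0078 to 0.053 in DCP1A, from -0.16 to 0.29 in LSM14A and from -0.17 to 0.24 in LSM14B. Most changes that kept their sign also moved by more than 1.5 times, for example those of LSM14A (-1.69 to -0.055) and PATL1 (-0.25 to -0.057) for G3BP1 and of DCP1B (0.18 to 1.11) and XRN1 (-0.28 to -0.028) for G3BP2. None of these changes had passed the test, and the cause was not tested.

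Of the 10 mRNAs, 5 were SG-enriched with the median ratio set to 1, and 7 with thresholds of 4 and 0.25, beside 9. For Total against siCtrl 4 were called at a threshold of 1.5 and 2 with no minimum, beside 1. For the rRNA-depleted transcripts 2 were called with 1 added, 25 at 1.5 and 16 with no minimum, beside 8, and summed per gene 1 gene was called. Of MANE transcripts 1 was called at 1.5 (XRN1) and 1 with no minimum (DCP1B), beside 0. Over all genes, calls moved by more than 1.5 times as follows, with the counts used in the report first and higher calls before lower ones. For siG3BP1 they were 311 and 453, then 138 and 243 with 1 TPM added, 684 and 1088 at a threshold of 1.5, and 1351 and 1409 with no minimum. For siG3BP2 they were 297 and 687, then 150 and 353, 604 and 1648, and 1192 and 1805. For Total against siCtrl they were 288 and 3311, then 156 higher with 1 TPM added, 678 and 1951 with the median ratio set to 1, 641 and 5427 at 1.5, and 1261 higher with no minimum. SG classes were 8528 and 1282, then 4505 and 3271 with the median set to 1 and 5332 and 538 at thresholds of 4 and 0.25. For AS over transcripts they were 6891 and 2029, then 1517 and 473 with 1 added, 3255 and 3392 with the median set to 1, 20732 and 4421 at 1.5, 26661 and 14211 with no minimum, and 971 and 179 summed per gene. For MANE transcripts they were 406 and 33, then 95 and 10, 172 and 58, 1828 and 77, and 2135 and 644.

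The LSM14A and DCP1B ratios in the rRNA-depleted libraries rest on few reads, and every eCLIP group has 2 libraries. SG and Total were 1 library each, so no value above separates the 2 preparations from their 2 libraries.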

Other observations

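EDC3 was the 1 mRNA of the 10 called in a knockdown, with 39.8 TPM in siCtrl and 18.5 in siG3BP1, and it was also the mRNA of the 10 with the highest eCLIP value per kb of span, 1.48 per 1000000 of the library total. In the gene's deposited eCLIP values G3BP1 and G3BP2 stood side by side, at 3.08 and 2.98 for G3BP1 and 3.07 and 3.04 for G3BP2 in untreated cells. The knockdown and its 1 library cannot be told apart, and part of the EDC3 span is shared with CLK3 on the opposite strand. Over all 12280 genes 3.69% were lower and 2.53% higher in siG3BP1, and XRN1 could not be called. The eCLIP value per kb was not corrected here for the level of the mRNA, and a link between it and the knockdown ratio was not tested.

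PARN, a deadenylase, was the decay factor with the largest ratio in the knockdowns, 16.8 in siG3BP1 and 18 in siG3BP2. Its level was low in every library that had no G3BP siRNA, at 0.326 TPM in siCtrl, 0.273 in Total and 0.705 in SG. Both ratios share the siCtrl library, and the reads behind these TPM were not analysed here.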
